A study of Huso dauricus with 9 samples.

Results

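SLC40A1, HEBP1 and ALAS2 are 3 genes of iron and heme handling, followed here in gut tissue of kaluga sturgeon (Huso dauricus) after release into a river. A transcript was taken as a member where its Swiss-Prot gene name, its Swiss-Prot entry name or its KEGG gene name was one of these symbols. That gave 8 of the 59331 assembled transcripts: 3 for SLC40A1, 2 for HEBP1 and 3 for ALAS2. The transcript with the highest mean level stands for its gene and is called its lead transcript. The genes were selected on these same FPKM values over the 3 groups, so their values are given as a description, without a test.

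Poly(A) RNA-seq libraries were made from the gut of 9 fish, 3 per group. The Ori group was sampled on day 0, the D14FL group on day 14 and the D30FL group on day 30 after release. All fish came from the same release, were dye-marked on the snout and were caught again with nets, so each library is a different fish. The labels give no strain, sex or age. No group was held back without release, so time in the river, food, season and sampling day cannot be told apart. Levels are the FPKM values that the authors deposited: sequenced fragments per unit of transcript length and of library size. Because they are per length, they can be compared between genes.

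Ferroportin, the product of SLC40A1, is the iron exporter of vertebrate cells. It sits on the basolateral side of enterocytes, where dietary iron enters the blood, and on macrophages that recycle iron from old red cells. The liver hormone hepcidin binds ferroportin and causes its removal. HEBP1 encodes a small cytosolic protein that binds heme and related tetrapyrroles. ALAS2 encodes the erythroid form of 5-aminolevulinate synthase, the enzyme that starts heme synthesis, while ALAS1 encodes the form used in other tissues. In zebrafish, loss of ferroportin1 or of alas2 causes anemia.

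The libraries themselves differed. The number of transcripts at 1 FPKM or more was 35812 to 41584 in Ori, 45145 to 48105 in D14FL and 42228 to 49503 in D30FL. D30FL 2 and D30FL 3 stood apart, with mean correlations to their own group of 0.763 and 0.788, the lowest of the 9 libraries, and at opposite ends of the D30FL fish on the leading principal component. The number of reads behind each value is unknown.

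SLC40A1 was the most abundant of the 3 genes and stood highest in the D14FL fish. The lead transcript measured 206.3, 63.1 and 186.6 FPKM in the Ori libraries, 234.2, 488.3 and 325.4 FPKM in the D14FL libraries, and 77.5, 43.6 and 119.2 FPKM in the D30FL libraries. All 3 D14FL fish lay above all 3 Ori fish and above all 3 D30FL fish, whereas the D30FL and Ori groups overlapped because Ori 2 was low. Means were 152 ± 77.6 FPKM in Ori, 349 ± 129 FPKM in D14FL and 80.1 ± 37.9 FPKM in D30FL (SD, n = 3 each). The D14FL mean was 2.30 times the Ori mean, and the D30FL mean was 0.229 times the D14FL mean. Within the libraries the lead transcript ranked between position 226 in D14FL 2 and position 2675 in D30FL 2 among the 54200 transcripts tested. The order of the group means of the lead transcript was D14FL, Ori, D30FL, and the neighbours Ori and D30FL did not differ beyond the spread of their fish.

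The other SLC40A1 transcripts had lower levels and a wider contrast at day 14. The second transcript measured 5.66, 5.80 and 13.2 FPKM in the Ori libraries, 43.8, 83.9 and 56.3 FPKM in the D14FL libraries, and 6.50, 28.0 and 7.83 FPKM in the D30FL libraries. The third measured 9.78, 3.33 and 6.75 FPKM in Ori, 17.8, 66.6 and 27.4 FPKM in D14FL, and 9.86, 9.90 and 8.89 FPKM in D30FL. In both transcripts the D14FL fish lay above every Ori and every D30FL fish, and the D30FL and Ori groups overlapped. Unlike in the lead transcript, their D30FL means were above their Ori means, at 1.71 and 1.44 times. Their D14FL means were 7.45 and 5.63 times the Ori means, against 2.30 times for the lead transcript. The lead transcript therefore made up 76.4% to 79.5% of the summed SLC40A1 level in D14FL, against 87.4% to 93.0% in Ori. In D30FL its share was 53.5% to 87.7%, lowest in D30FL 2. All 3 transcripts carry the ferroportin domain annotation and have the sterlet (Acipenser ruthenus) SLC40A1 protein as their best match. Whether they are gene copies, splice forms or fragments of 1 message was not tested, and near-identical copies may share reads.

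HEBP1 showed the same order of groups as the lead SLC40A1 transcript, at a lower level. The lead transcript measured 33.8, 23.9 and 26.6 FPKM in the Ori libraries, 57.1, 49.1 and 70.4 FPKM in the D14FL libraries, and 23.4, 24.4 and 14.5 FPKM in the D30FL libraries. Every D14FL fish lay above every Ori and every D30FL fish. The D30FL and Ori groups overlapped by a small margin, with D30FL 2 just above Ori 2. Means were 28.1 ± 5.16 FPKM in Ori, 58.9 ± 10.7 FPKM in D14FL and 20.8 ± 5.42 FPKM in D30FL (SD, n = 3 each). The D14FL mean was 2.10 times the Ori mean, and the D30FL mean was 0.353 times the D14FL mean. This transcript carries the SOUL heme-binding domain annotation, and its best protein match is the HEBP1 of the reedfish (Erpetoichthys calabaricus).

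A second HEBP1 transcript was near the lower limit of the table and did not share that order. It measured 1.28, 1.66 and 1.31 FPKM in Ori, 0.556, 1.57 and 1.23 FPKM in D14FL, and 0.873, 0.710 and 0.766 FPKM in D30FL. Its D30FL values lay below all Ori values and overlapped the D14FL values. The lead transcript held 93.5% to 99.0% of the summed HEBP1 level in the 9 libraries.

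ALAS2 was near the lower limit of the table in every group, and its highest group was D30FL. The lead transcript measured 0.574, 0.191 and 0 FPKM in the Ori libraries, 1.77, 0.714 and 1.61 FPKM in the D14FL libraries, and 1.56, 2.92 and 0.881 FPKM in the D30FL libraries. All D14FL fish and all D30FL fish lay above all Ori fish, the D30FL and D14FL groups overlapped, and in Ori 3 the transcript is listed at 0. It met the filter of 1 FPKM in 3 libraries through the later groups, since no Ori fish reached 1 FPKM. Another ALAS2 transcript measured 0.333, 0 and 0 FPKM in Ori, 1.06, 0.683 and 1.23 FPKM in D14FL, and 0.670, 2.76 and 0.155 FPKM in D30FL. The remaining one, which did not meet the filter, measured 0.313, 0 and 0 FPKM in Ori, 0.277, 0.566 and 0.957 FPKM in D14FL, and 1.96, 4.33 and 0 FPKM in D30FL. D30FL 2 had the highest level of all 3 ALAS2 transcripts, and D30FL 3 had the lowest D30FL level of all 3. Differences at these levels depend on the pseudocount: D14FL minus Ori for the lead transcript was 0.91 with a pseudocount of 1 and 2.35 with 0.1, as differences of log2(FPKM + pseudocount).

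**Figure D1:**
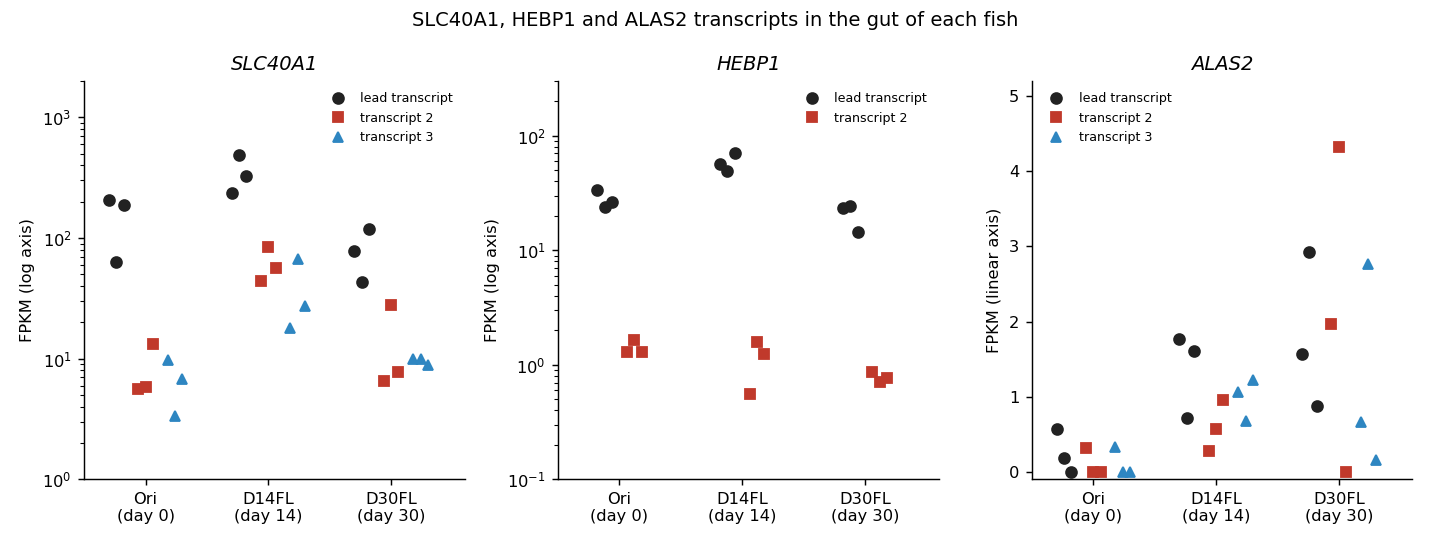
FPKM of every SLC40A1, HEBP1 and ALAS2 transcript in each of the 9 fish, by group on the x axis (Ori, D14FL, D30FL), with a log axis for SLC40A1 and HEBP1 and a linear axis for ALAS2; each symbol is 1 fish. All SLC40A1 transcripts and the lead HEBP1 transcript are highest in the 3 D14FL fish, while ALAS2 stays at or below 4.33 FPKM throughout.

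The level of the typical transcript differed between Ori and the later groups, and the members are set against it. Each of the 54200 tested transcripts has a difference of group means of log2(FPKM + 1). The median of these differences was 0.38 for D14FL minus Ori, 0.37 for D30FL minus Ori and 0.00 for D30FL minus D14FL. Below, a relative log2 difference is a difference of group means of log2(FPKM + 1) from which this median was subtracted. For the lead transcript of SLC40A1 it was 0.92 ± 0.50 (standard error) for D14FL minus Ori, -1.23 ± 0.50 for D30FL minus Ori and -2.16 ± 0.50 for D30FL minus D14FL. For HEBP1 these values were 0.66 ± 0.31, -0.81 ± 0.31 and -1.47 ± 0.31. For ALAS2 they were 0.53 ± 0.42, 0.74 ± 0.42 and 0.21 ± 0.42. Before the median was subtracted, D14FL minus Ori was 1.30 for SLC40A1 and 1.04 for HEBP1, and D30FL minus Ori was -0.86 for SLC40A1, -0.44 for HEBP1 and 1.11 for ALAS2.

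Single fish moved these unsubtracted values. For SLC40A1, D14FL minus Ori was 0.76 without Ori 2, the low Ori fish. D30FL minus Ori was -0.48 without D30FL 2, -0.55 without Ori 1, -1.20 without D30FL 3 and -1.40 without Ori 2. For HEBP1, D30FL minus Ori was -0.57 without D30FL 2 and -0.21 without D30FL 3. For ALAS2 that difference was 0.83 without D30FL 2 and 1.36 without D30FL 3, and D30FL minus D14FL was -0.08 and 0.45 without those fish. D30FL minus D14FL for SLC40A1 lay between -2.50 without D30FL 3 and -1.79 without D30FL 2, and for HEBP1 between -1.61 without D30FL 2 and -1.25 without D30FL 3.

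Groups without overlap between fish were counted over the 7 member transcripts that met the filter. For D14FL against Ori, 6 of the 7 were higher, beside 27.8% of all tested transcripts, and 0 were lower, beside 6.7%. For D30FL against Ori, 1 of the 7 was higher, beside 20.8%, and 1 was lower, beside 6.14%. For D30FL against D14FL, 0 were higher, beside 3.83%, and 4 of the 7 were lower, beside 4.46%. These counts repeat what the genes were chosen for and support nothing further, and both contrasts against Ori use the same 3 Ori libraries.

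The other genes of iron and heme handling were followed in 6 lists by role, with the lead transcript of each symbol. Of 115 symbols, 85 had a matching transcript and 84 met the filter. They were tested in a limma fit over all transcripts, and an adjusted p under 0.05 counted as passed. The test was of the difference before the median was subtracted. Every adjusted p printed below beside a relative log2 difference belongs to that unsubtracted difference. For D14FL against Ori, 2 of the 84 passed, both higher, which is 2.38% beside 2.77% of all transcripts (2.17% higher and 0.6% lower). For D30FL against Ori, 3 passed, all higher, which is 3.57% beside 3.22% of all transcripts (2.49% higher and 0.732% lower). Of these 3, STEAP4 met the filter through the later groups alone. For D30FL against D14FL, none passed in limma, beside 0.00185% of all transcripts, and 2 had an unadjusted p under 0.05. The median relative log2 difference of the 84 genes was 0.14 for D14FL minus Ori, 0.03 for D30FL minus Ori and -0.05 for D30FL minus D14FL, against 0 for all tested transcripts by construction. SLC40A1, HEBP1 and ALAS2 are not in these counts. Counts at an unadjusted p under 0.05 are given without the share of all transcripts, which was not counted. In both comparisons with Ori many transcripts of the whole table lay under it. An unadjusted p of 0.0476 (CYBRD1, day 14) had an adjusted p of 0.212 in limma, and 0.0437 (SLC39A14, day 30) had 0.195. Such counts describe a list and are no result about it.

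The counts depended on single libraries. For D14FL against Ori they were 10 without D30FL 2, 6 without D30FL 3, 1 without Ori 1 or D30FL 1, and 0 without Ori 2, Ori 3 or any D14FL library. For D30FL against Ori they were 14 without D30FL 3, 3 without D14FL 3, 2 without D14FL 2, 1 without Ori 1, Ori 2, D14FL 1 or D30FL 2, and 0 without Ori 3 or D30FL 1. Calls over all 54200 transcripts moved in a similar way. For D14FL against Ori they were 3649 without D30FL 2 and 2665 without D30FL 3, against 1501 with all libraries. They were 139 to 302 in the fits where the count of iron and heme genes was 0. For D30FL against Ori they were 6466 without D30FL 3, 226 without Ori 3 and 98 without D30FL 1, against 1746 with all libraries. The 10 genes called without D30FL 2 included ALAS1, FBXL5, SLC11A2 and STEAP4, and the 14 called without D30FL 3 included EPAS1, CYBRD1 and FBXL5. No Ori fish reached 1 FPKM in STEAP4 or CYBRD1.

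Genes that rose were ISCU, NFS1 and STEAP4. ISCU encodes the scaffold on which mitochondrial iron-sulfur clusters are built. It measured 158, 160 and 159 FPKM in the Ori libraries, 682, 685 and 664 FPKM in the D14FL libraries, and 885, 1118 and 446 FPKM in the D30FL libraries. Every fish of both later groups lay above every Ori fish, and D30FL 3 was the lowest of the later fish. Its relative log2 difference was 1.70 ± 0.36 (standard error) for D14FL minus Ori (limma, adjusted p = 0.0185) and 1.88 ± 0.36 for D30FL minus Ori (limma, adjusted p = 0.014). The differences tested, before the median was subtracted, were 2.08 at day 14 and 2.25 at day 30. Over all alternatives the adjusted p ran between 0.00826 and 0.0788 at day 14 and between 0.00458 and 0.0795 at day 30. The call at day 14 was lost with median-of-ratios scaling (limma, adjusted p = 0.0516) and on leaving out Ori 2, Ori 3 or any D14FL library. At day 30 it was lost on leaving out Ori 3 or D30FL 1.

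NFS1, the cysteine desulfurase that supplies sulfur to the same clusters, measured 17.3, 12.9 and 17.4 FPKM in Ori, 46.1, 43.4 and 47.9 FPKM in D14FL, and 48.0, 72.8 and 31.1 FPKM in D30FL. No later fish overlapped an Ori fish. The relative log2 difference was 1.10 ± 0.33 for D14FL minus Ori (limma, adjusted p = 0.0408) and 1.17 ± 0.33 for D30FL minus Ori (limma, adjusted p = 0.0345). The differences tested, before the median was subtracted, were 1.48 at day 14 and 1.54 at day 30. Under median-of-ratios scaling neither call held (limma, adjusted p = 0.116 at day 14 and 0.0847 at day 30), nor did either under quantile scaling. Both calls were also lost with the replicate block and with transcripts summed, and the day 30 call with only the 2 groups compared. Over all alternatives the adjusted p ran between 0.0174 and 0.295 at day 14 and between 0.0119 and 0.252 at day 30. Leaving out any Ori or D14FL library, or D30FL 1, ended the call at day 14. At day 30 it ended without any 1 of Ori 1, Ori 2, Ori 3, D14FL 1, D14FL 2, D30FL 1 or D30FL 2.

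STEAP4, a membrane metalloreductase that reduces iron and copper, measured 0.306, 0.199 and 0.087 FPKM in Ori, 10.6, 4.82 and 24.2 FPKM in D14FL, and 7.98, 61.1 and 3.60 FPKM in D30FL. The Ori fish were near 0, all later fish lay above them, and D30FL 2 exceeded every other fish. STEAP4 met the filter through the later groups alone, so its call is a description only. It rose in D30FL against Ori by a relative log2 difference of 3.15 ± 0.81 (limma, adjusted p = 0.0415). For D14FL minus Ori the value was 2.94 ± 0.81 and did not pass (limma, adjusted p = 0.052). The differences tested, before the median was subtracted, were 3.52 at day 30 and 3.32 at day 14. The difference of D30FL from D14FL was 0.20 and did not pass. With median-of-ratios scaling the day 30 call was lost (limma, adjusted p = 0.0513) and with quantile scaling, within a range of 0.0131 to 0.112 over all alternatives. It was also lost with the replicate block, with only the 2 groups compared, and without any Ori library, D14FL 1, D30FL 1 or D30FL 2.

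**Figure D2:**
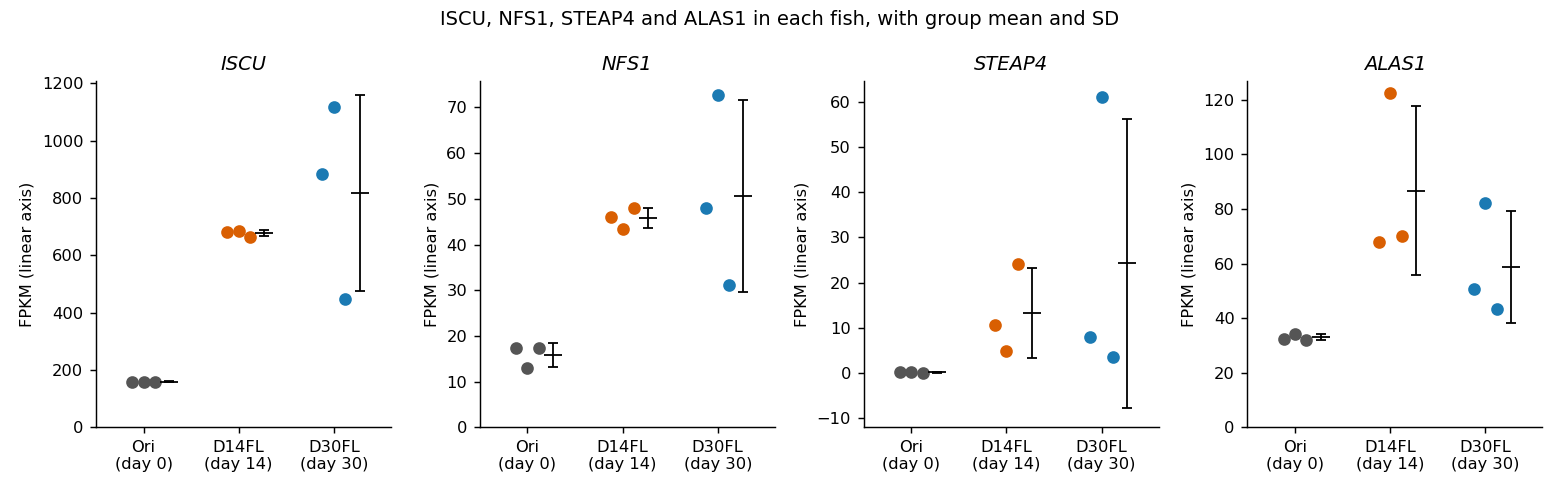
FPKM of ISCU, NFS1, STEAP4 and ALAS1 in each fish on linear axes, by group on the x axis; points are fish and the bar beside them is the group mean with its SD (n = 3). ISCU sits at 158 to 160 FPKM in Ori and at 446 FPKM or more in every later fish, and D30FL 2 is the highest D30FL fish in all 4 genes.

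In heme synthesis, 12 of 15 symbols had a transcript, 11 met the filter and none passed the test in limma in either comparison with Ori, while 3 had an unadjusted p under 0.05 at day 14 and 4 at day 30. ALAS1, the housekeeping counterpart of ALAS2, measured 32.5, 34.3 and 32.2 FPKM in Ori, 67.8, 122 and 70.1 FPKM in D14FL, and 50.5, 82.1 and 43.4 FPKM in D30FL. Both later groups lay above all Ori fish, with relative log2 differences of 0.93 ± 0.33 at day 14 (limma, adjusted p = 0.0583) and 0.39 ± 0.33 at day 30 (limma, adjusted p = 0.194). Its level was above that of the ALAS2 lead transcript in all 9 fish.

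The enzymes downstream of ALAS differed in sign among themselves. In relative log2 difference to Ori, ALAD, which joins aminolevulinate molecules, was at -0.92 in D14FL and -1.23 in D30FL. UROS, which closes the ring, was at 0.10 and 0.23 in those groups. UROD, which trims the side chains, was at -1.41 in D14FL and -1.31 in D30FL, with D14FL 2 at 5.41 FPKM, the lowest fish. CPOX was at -0.69 and -0.53 and PPOX, the enzyme before the last, at -0.54 and -0.65. FECH, which inserts iron to make heme, was at 0.14 in D14FL and 0.40 in D30FL. ABCB10, a mitochondrial transporter that interacts with FECH in mice, was at -0.18 and 0.03. None of these passed, and SLC25A38, the mitochondrial carrier tied to glycine import for ALAS2, had no matching transcript.

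For heme transport, binding and breakdown, 13 of 18 symbols had a transcript, 13 met the filter and none passed in limma, with 4 at an unadjusted p under 0.05 at day 14 and 6 at day 30. HMOX1, the inducible heme oxygenase, measured 25.9, 17.3 and 56.0 FPKM in Ori, 34.4, 20.5 and 57.0 FPKM in D14FL, and 30.2, 50.7 and 31.2 FPKM in D30FL, so its groups overlapped. A transcript named HMOX2, after the constitutive form, has a cilia- and flagella-associated protein as its best database match, so the name is uncertain. It measured 7.46, 7.96 and 6.46 FPKM in Ori, 16.8, 23.8 and 22.7 FPKM in D14FL, and 18.6, 34.8 and 10.9 FPKM in D30FL. Its later fish all lay above Ori (limma, adjusted p = 0.0723 at day 14 and 0.0818 at day 30). BLVRB, a biliverdin reductase, was at -0.76 in D14FL and -1.26 in D30FL relative to Ori on the log2 scale.

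Among carriers of heme, FLVCR1, a plasma-membrane transporter described for heme and choline, was at 0.62 in D14FL and 0.46 in D30FL and is listed at 0 in Ori 1. SLC46A1, a proton-coupled folate transporter also described as a heme carrier, was at -0.39 and -0.81. HPX, the plasma protein that binds free heme, was at 0.21 in D14FL and -1.37 in D30FL. HEBP2, the relative of HEBP1, was at 0.84 in D14FL and 1.60 in D30FL, but its lead transcript has afadin, another protein, as its best database match. A HEBP2 transcript matched best by a heme-binding protein 2-like protein measured 16.1, 4.15 and 6.55 FPKM in Ori. It measured 5.14, 4.86 and 7.66 FPKM in D14FL and 4.24, 2.59 and 6.30 FPKM in D30FL, and was not called. Another HEBP2 transcript, matched best by a D-tyrosyl-tRNA deacylase, was called higher at day 30. TSPO, a mitochondrial outer-membrane protein that binds porphyrins, measured 223, 162 and 233 FPKM in Ori, 84.8, 78.1 and 124 FPKM in D14FL, and 86.1, 103 and 109 FPKM in D30FL. TSPO did not pass (limma, adjusted p = 0.067 at day 14 and 0.0736 at day 30), but with median-of-ratios scaling it was called lower in both comparisons, and at day 14 also without D30FL 2 and with a mean FPKM of at least 5. SLC48A1 and BLVRA were matched only by another entry name, after values were seen, and were at 0.00 and -0.35 in D14FL and at -0.20 and -0.10 in D30FL.

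In iron uptake and export, 12 of 19 symbols had a transcript, all 12 met the filter, and STEAP4 at day 30 was the gene that passed. SLC11A2, the divalent metal importer of the brush border, measured 2.14, 2.52 and 3.29 FPKM in Ori, 7.72, 6.77 and 12.4 FPKM in D14FL, and 3.09, 12.2 and 2.81 FPKM in D30FL. Its D14FL fish lay above all Ori fish, and its D30FL fish overlapped both groups. The relative log2 difference was 1.04 ± 0.48 for D14FL minus Ori (limma, adjusted p = 0.119) and 0.34 ± 0.48 for D30FL minus Ori (limma, adjusted p = 0.377). CYBRD1, the ferric reductase of the duodenal brush border, is listed at 0 in Ori 1 and was at 1.09 in D14FL and 1.30 in D30FL. HEPH, the ferroxidase that works beside ferroportin, measured 6.97, 15.4 and 11.99 FPKM in Ori, 14.4, 16.2 and 17.1 FPKM in D14FL, and 13.3, 12.4 and 12.4 FPKM in D30FL. Both later groups overlapped Ori in HEPH, with relative log2 differences of 0.11 ± 0.32 at day 14 and -0.17 ± 0.32 at day 30. All D30FL fish lay below all D14FL fish, as for SLC40A1, and this difference was -0.29 ± 0.32 and did not pass. Of the 84 genes of the 6 lists, 5 lay so, beside 4.46% of all tested transcripts. Besides HEPH these were HPX, at -1.59 ± 0.47 for D30FL minus D14FL, BLVRB, SLC46A1 and SMAD7, and none passed. CP, the plasma ferroxidase, was at -0.27 and 0.34 and was highest in D30FL 2 at 11.3 FPKM. TFRC, the transferrin receptor, was at -0.53 and -0.24, and STEAP3, the endosomal ferrireductase, at -0.01 and -0.21.

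Iron storage and sensing genes included the most abundant transcripts of the 6 lists. All 17 matched symbols of 20 met the filter, and none passed in limma, with 5 at an unadjusted p under 0.05 at day 14 and 3 at day 30. FTH1, the ferritin heavy chain, averaged 1729 ± 582 FPKM in Ori, 1853 ± 273 FPKM in D14FL and 1744 ± 569 FPKM in D30FL (SD, n = 3 each), so the groups overlapped. FRIM, the middle subunit that fish and amphibians have, averaged 3519 ± 961 FPKM in Ori, 3102 ± 497 FPKM in D14FL and 2766 ± 921 FPKM in D30FL (SD, n = 3 each). FTL was at 1.68 in D14FL and 1.61 in D30FL, but its best protein match is human, not fish. NCOA4, which delivers ferritin to lysosomes, was at -0.02 and -0.01.

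The sensors of cell iron gave no call. ACO1 and IREB2, the iron regulatory proteins, were at -0.05 and 0.62 in D14FL and at -0.09 and 0.24 in D30FL. FBXL5, which marks IREB2 for degradation when iron is high, measured 4.48, 4.83 and 5.47 FPKM in Ori, 15.0, 11.7 and 12.2 FPKM in D14FL, and 11.8, 14.9 and 5.86 FPKM in D30FL. All later fish lay above Ori (limma, adjusted p = 0.0825 at day 14 and 0.151 at day 30). EPAS1, which encodes the hypoxia factor that drives ferroportin and SLC11A2 in mouse enterocytes, measured 3.99, 3.01 and 5.12 FPKM in Ori, 7.90, 9.22 and 16.6 FPKM in D14FL, and 13.4, 19.4 and 8.22 FPKM in D30FL. EPAS1 was above all Ori fish in both later groups, with relative log2 differences of 0.85 ± 0.40 (limma, adjusted p = 0.105) and 1.12 ± 0.40 (limma, adjusted p = 0.0605).

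In the hepcidin axis, 17 of 22 symbols had a transcript, all 17 met the filter and none passed in limma, with 8 at an unadjusted p under 0.05 at day 14 and 4 at day 30. HAMP, which encodes hepcidin, measured 2.93, 0.726 and 0.500 FPKM in Ori, 5.11, 4.34 and 1.27 FPKM in D14FL, and 1.84, 21.6 and 0.988 FPKM in D30FL. The HAMP groups overlapped, and D30FL 2 stood above the rest. TF, plasma transferrin, was likewise highest in D30FL 2, at 43.4 FPKM against 0.500 to 6.72 FPKM in the other fish. BMP6, the ligand that reports liver iron, was at 0.14 in D14FL and -0.35 in D30FL. HFE was at -0.40 and -1.23, but the best match of its transcript is a class I-related major histocompatibility gene, so the name is uncertain. HJV and TMPRSS6 had no matching transcript.

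For mitochondrial iron and iron-sulfur clusters, 14 of 21 symbols had a transcript, all 14 met the filter, and ISCU and NFS1 rose in both comparisons with Ori. The other genes of the list did not pass. The mitochondrial iron importers were matched only by the entry names of mitoferrin, after values were seen. SLC25A28 was at -0.46 in D14FL and -0.11 in D30FL. SLC25A37, the erythroid mitoferrin, did not meet the filter and reached at most 2.71 FPKM, in D30FL 2.

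**Figure D3:**
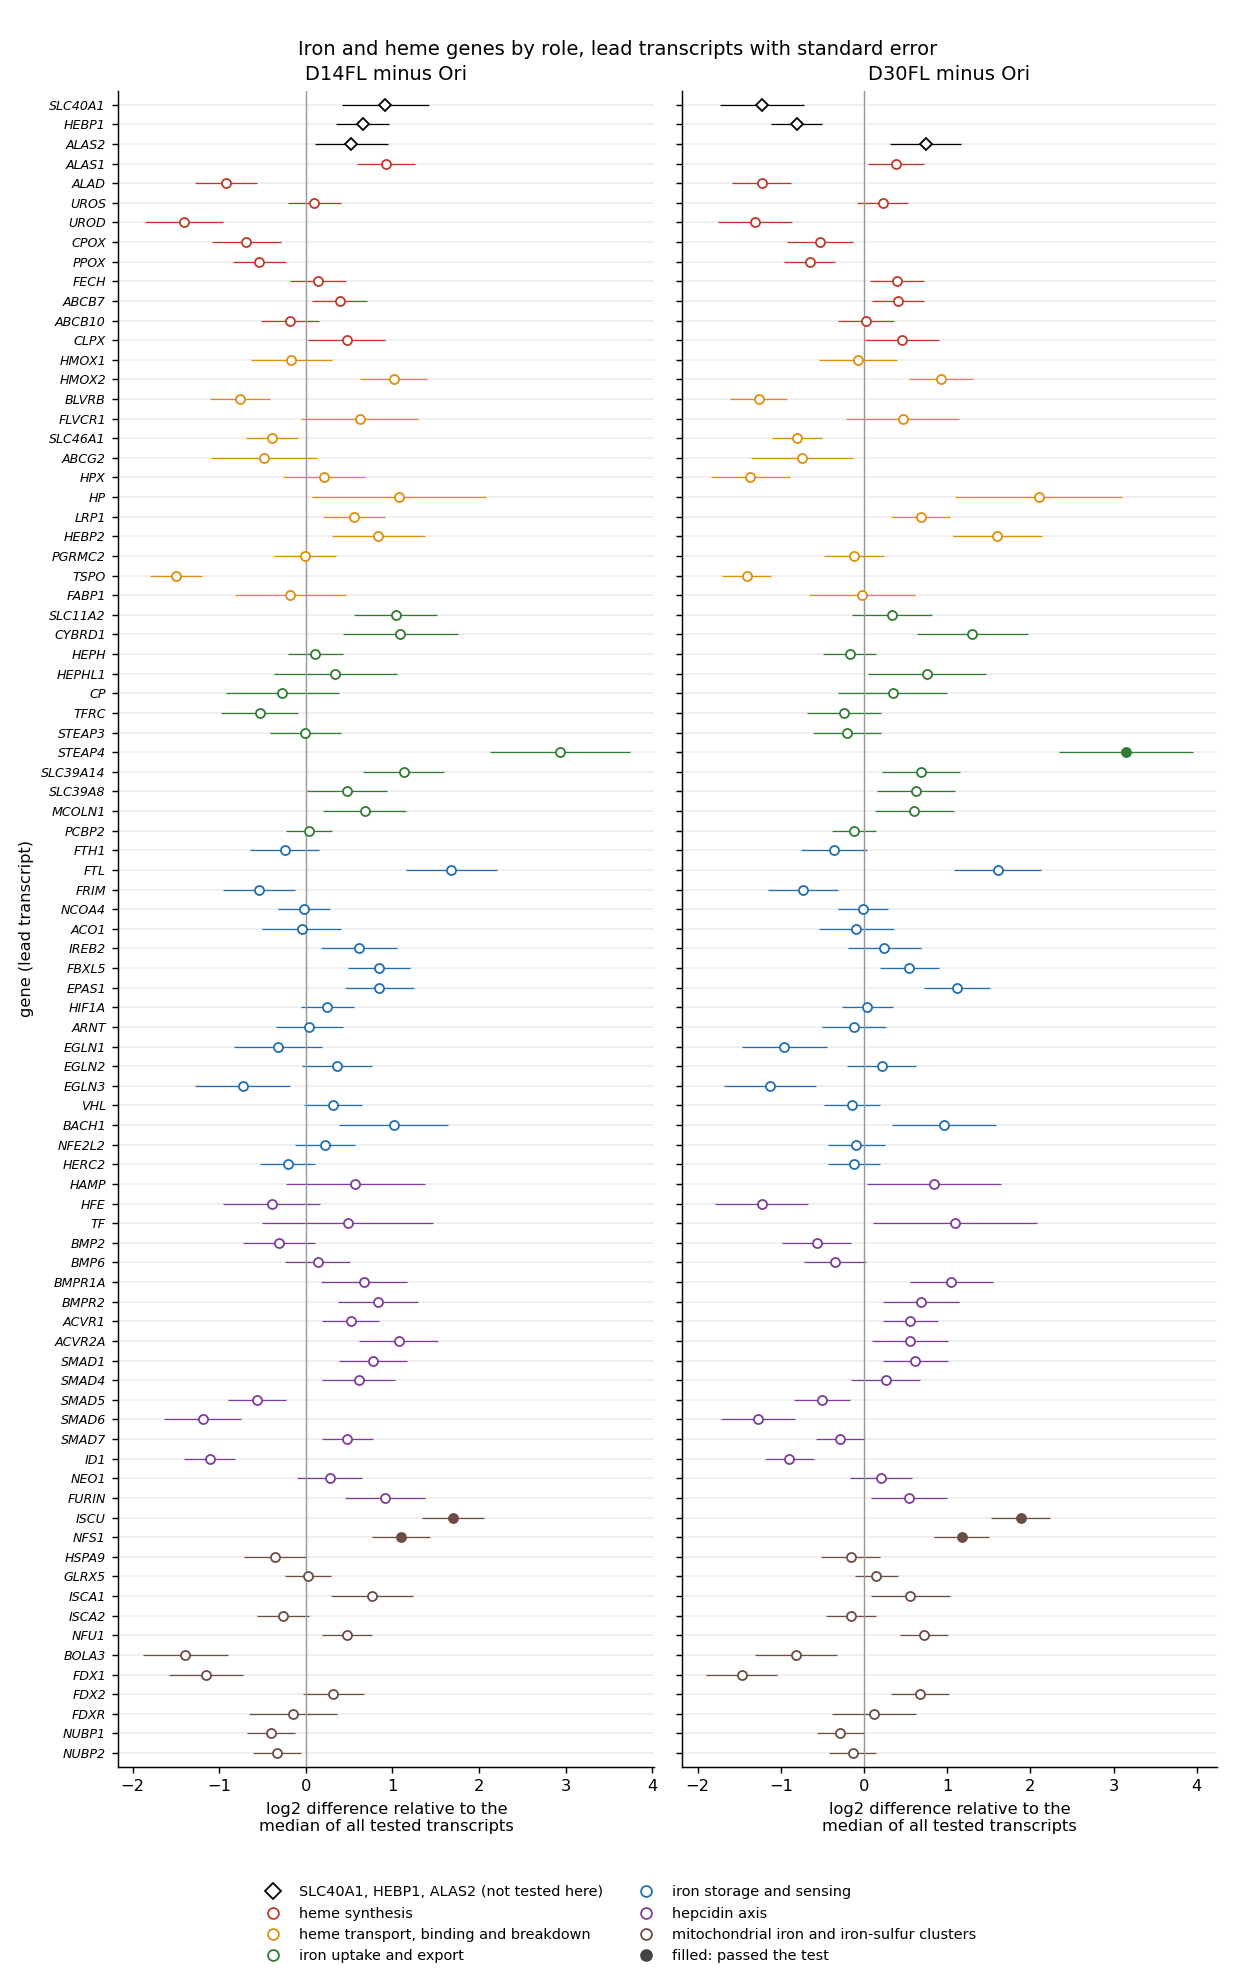
Log2 difference relative to the median of all tested transcripts (x axis) for the lead transcripts of SLC40A1, HEBP1, ALAS2 and 82 of the 84 tested genes of the 6 lists (y axis), for D14FL minus Ori and D30FL minus Ori; bars are standard errors and filled points passed the test. SLC40A1 and HEBP1 lie right of 0 at day 14 and left of 0 at day 30, and ALAS2 lies right of 0 in both panels. ISCU, NFS1 and STEAP4 hold the 5 filled points, which passed the test of the difference before the median was subtracted.

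Markers of cell types that carry these genes were read beside them. In bulk tissue, fewer cells of a type and less RNA per cell cannot be told apart. The enterocyte markers, of which 21 of 25 had a transcript, were present in all fish, as the gut label asks: FABP6, FABP2, APOA4 and APOA1 had the highest means, and in every library the list summed to 2951 FPKM or more. The list summed to 4675 to 15772 FPKM in Ori, 4936 to 7872 FPKM in D14FL and 2951 to 7628 FPKM in D30FL, and none of its 21 genes passed in limma in any comparison. At an unadjusted p under 0.05 there were 12 of them at day 14 against Ori, 6 at day 30 against Ori and 4 for D30FL against D14FL. Of the 21 markers, 16 lay above the median of all transcripts for D14FL minus Ori, 9 for D30FL minus Ori and 4 for D30FL minus D14FL. FABP6, the ileal bile acid-binding protein, measured 1704, 6779 and 8097 FPKM in Ori, 441, 93.5 and 3440 FPKM in D14FL, and 1507, 234 and 2656 FPKM in D30FL, so its spread within a group was wide. The 4 markers at an unadjusted p under 0.05 for D30FL against D14FL, ANPEP, DPP4, CDHR5 and MEP1B, are brush-border proteins. In each of them all D30FL fish lay below all D14FL fish, as for SLC40A1 and HEBP1. They were picked on this same contrast, so the likeness supports nothing further. In no other marker of the list did all D30FL fish lie below all D14FL fish. That is 4 of the 21 markers, beside 4.46% of all tested transcripts. DPP4, a peptidase, measured 90.4, 110 and 144 FPKM in Ori, 174, 188 and 181 FPKM in D14FL, and 81.9, 85.2 and 93.8 FPKM in D30FL. In ANPEP, DPP4 and CDHR5 all D14FL fish also lay above all Ori fish. Of the 21 markers, 8 did so, beside 27.8% of all tested transcripts. The part of enterocyte content in the SLC40A1 pattern was not tested.

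Macrophages also express ferroportin. Of 17 macrophage markers 13 had a transcript, and their sum was 349 to 512 FPKM in Ori, 411 to 488 FPKM in D14FL and 326 to 363 FPKM in D30FL. MRC1, the mannose receptor, measured 150, 13.8 and 28.3 FPKM in Ori, 139, 171 and 122 FPKM in D14FL, and 40.99, 26.2 and 49.98 FPKM in D30FL. All D14FL fish lay above all D30FL fish, as for SLC40A1, but the D14FL and Ori groups overlapped through Ori 1. Of the 13 markers, 1 had all D30FL fish below all D14FL fish, beside 4.46% of all tested transcripts. MRC1 did not pass (limma, adjusted p = 0.133 for D14FL against Ori) but was called higher in D14FL without Ori 1. AIF1, a calcium-binding protein of macrophages, averaged 180 FPKM in Ori, 81.4 FPKM in D14FL and 75.95 FPKM in D30FL, with all later fish below all Ori fish. It did not pass (limma, adjusted p = 0.11 at day 14 and 0.0744 at day 30) but was called lower at day 30 with median-of-ratios scaling and without D30FL 3. CTSS was not called in any alternative, and no marker is listed at 0 in any library.

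At an unadjusted p under 0.05 there were 7 macrophage markers for D14FL against Ori, 6 for D30FL against Ori and 1, MRC1, for D30FL against D14FL. They did not share a direction. CSF1R, the receptor for the macrophage growth factor, measured 1.53, 2.43 and 1.67 FPKM in Ori, 5.21, 7.97 and 12.5 FPKM in D14FL, and 7.01, 18.5 and 3.51 FPKM in D30FL, with all later fish above Ori. C1QA, a complement chain made by macrophages, measured 16.1, 13.8 and 13.8 FPKM in Ori, 39.8, 19.5 and 59.1 FPKM in D14FL, and 31.97, 46.6 and 43.9 FPKM in D30FL, again with all later fish above Ori. C1QC did likewise, and C1QB overlapped Ori in D14FL 2. None of these 4 passed (limma, adjusted p = 0.0920 to 0.128 at day 14 and 0.0625 to 0.0897 at day 30), but CSF1R and C1QA were called higher under some alternatives.

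SPIC, a transcription factor needed in mice for the splenic macrophages that recycle red-cell iron, was the macrophage marker that passed, and it fell. It measured 71.2, 63.0 and 99.998 FPKM in Ori, 17.2, 26.4 and 10.6 FPKM in D14FL, and 18.1, 8.10 and 35.5 FPKM in D30FL. All later fish lay below all Ori fish. The log2 differences of SPIC that were tested, before the median was subtracted, were -2.11 at day 14 and -2.07 at day 30. Its relative log2 difference was -2.50 ± 0.48 for D14FL minus Ori (limma, adjusted p = 0.044) and -2.44 ± 0.48 for D30FL minus Ori (limma, adjusted p = 0.0439). A second SPIC transcript, at 78.2, 80.6 and 74.4 FPKM in Ori, 15.3, 17.4 and 4.29 FPKM in D14FL and 8.998, 4.38 and 24.6 FPKM in D30FL, passed in both comparisons as well. Its calls were lost without any 1 Ori library or D30FL 1 in both comparisons, without any D14FL library at day 14 and without D30FL 2 at day 30. The calls of the lead transcript were lost without any 1 Ori library (limma, adjusted p = 0.0748 to 0.127, within 0.0125 to 0.132 over all alternatives), and also without any D14FL library or D30FL 1 at day 14, and without D14FL 1, D14FL 2, D30FL 1 or D30FL 2 at day 30. With the replicate block, the calls of both SPIC transcripts were lost in both comparisons. With only the 2 groups compared, the day 30 call of the lead transcript was lost. The lead SPIC transcript comes from the same assembled component as ANPEP, a brush-border peptidase, so reads could be shared. Whether SPIC marks macrophages in this gut was not tested.

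Red cells and their precursors are the known site of ALAS2. Of 28 red cell markers 7 had a transcript, and these summed to 124 to 261 FPKM in Ori, 253 to 319 FPKM in D14FL and 248 to 337 FPKM in D30FL. The alpha globin HBA measured 99.2, 9.09 and 7.95 FPKM in Ori, 53.5, 60.6 and 111 FPKM in D14FL, and 50.2, 116 and 57.7 FPKM in D30FL. HBB measured 36.4, 4.28 and 5.58 FPKM in Ori, 31.9, 49.3 and 48.2 FPKM in D14FL, and 43.5, 70.2 and 45.6 FPKM in D30FL. HBA and HBB were low in Ori 2 and Ori 3, where ALAS2 was 0.191 FPKM or less, and high in D30FL 2, where ALAS2 was highest. The 7 markers did not all share this pattern. Of them, 5 lay above the median of all transcripts for D14FL minus Ori and 4 for D30FL minus Ori. In 1 of the 7, all D14FL fish lay below all Ori fish. Ori 1 had HBA and HBB levels within the range of the later fish and an ALAS2 level below all of them. In HBE1, another globin, Ori 1 was at 33.6 FPKM, above the 9.12 to 18.7 FPKM of the later fish. CA2 was the other red cell marker with a high mean, but the best match of its transcript is carbonic anhydrase 7. The red cell sum includes this transcript. In D14FL 1 the sum was 285.7 FPKM, with HBA at 53.5, HBB at 31.9 and HBE1 at most 18.7 FPKM. Most of the sum in that fish was therefore not globin, and the sum is no measure of blood alone. None of the 7 passed in limma, and 3 had an unadjusted p under 0.05 in each comparison with Ori, but without Ori 1 both HBA and HBB were called higher at day 14 and at day 30. RHAG is listed at 0 in Ori 2. The part of blood in the ALAS2 values was not tested.

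Liver and pancreas can adhere to a gut sample, and their markers were read too. The 14 of 17 liver markers with a transcript summed to 154 to 405 FPKM in Ori, 541 to 849 FPKM in D14FL and 497 to 566 FPKM in D30FL, with APOB the most abundant, and none passed in limma (5 at an unadjusted p under 0.05 at day 14, 3 at day 30 and 4 for D30FL against D14FL). Of the 14, 10 lay above the median of all transcripts for D14FL minus Ori, 4 for D30FL minus Ori and 1 for D30FL minus D14FL. The 4 at an unadjusted p under 0.05 for D30FL against D14FL were the fibrinogen chains FGA, FGB and FGG and the plasma protein APOH. All had their highest group mean in D14FL, as SLC40A1 and HEBP1. They were picked on that contrast, so this likeness supports nothing further. FGG measured 4.87, 3.76 and 2.42 FPKM in Ori, 13.3, 9.72 and 2.21 FPKM in D14FL, and 1.64, 2.00 and 1.85 FPKM in D30FL. In D14FL 3, where HEBP1 was highest, these 4 were at most 3.10 FPKM. The whole liver list summed to 731 FPKM in that fish, above every Ori and D30FL fish. These 4 therefore made up little of that sum. The 15 of 21 pancreas markers with a transcript summed to 706 to 816 FPKM in Ori, 804 to 13607 FPKM in D14FL and 2620 to 8956 FPKM in D30FL. Of these, 4 rose in D14FL and 10 in D30FL against Ori, although the best matches of CPB1, CELA1 and ELA2A are other proteins. In D14FL the pancreas sum was highest in D14FL 3 and lowest in D14FL 2. HEBP1 had that same order of fish, and SLC40A1 was highest in D14FL 2. In D30FL the pancreas sum was above that of every Ori fish, while HEBP1 and SLC40A1 overlapped Ori. Their part in the member values was not tested.

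**Figure D4:**
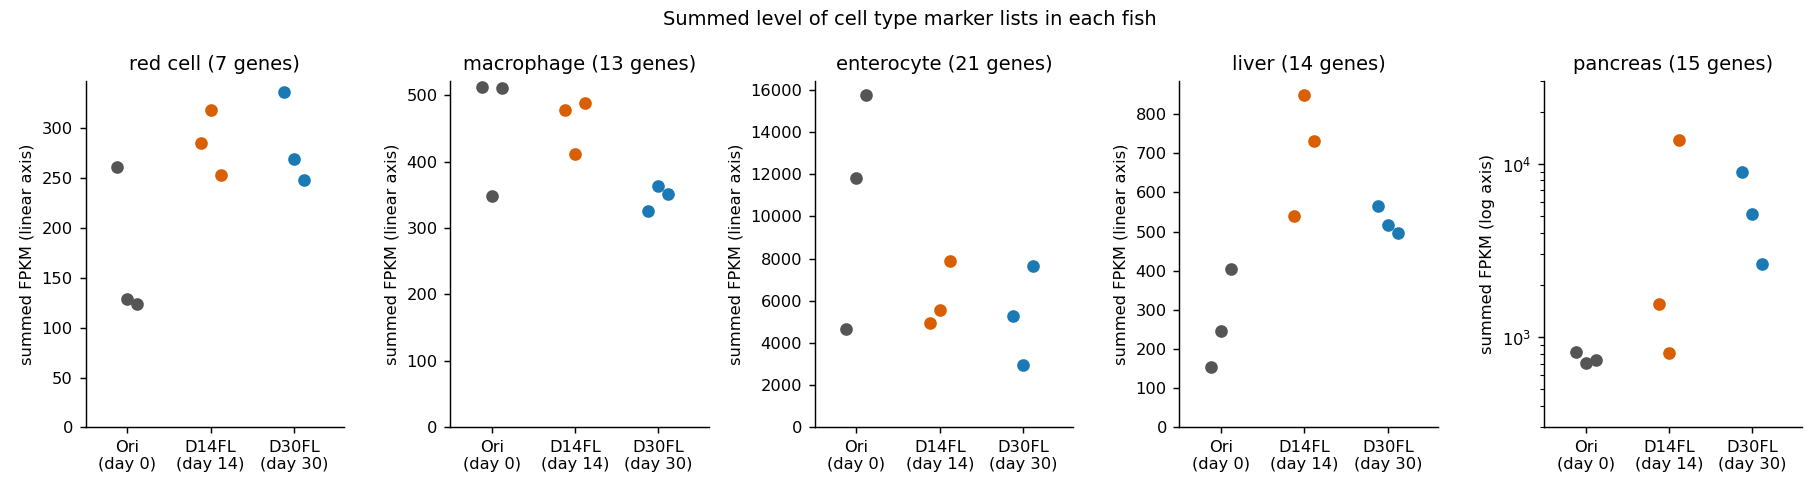
Summed FPKM of the matched markers of each cell type (y axis; log axis for pancreas, linear for the rest) in each of the 9 fish, by group on the x axis. The red cell sum is lowest in Ori 2 and Ori 3, the macrophage sum is 326 to 363 FPKM in all 3 D30FL fish, and the pancreas sum is 706 to 816 FPKM in Ori and at most 13607 FPKM in D14FL. The red cell sum includes the CA2 transcript, whose name is uncertain.

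The transcripts whose levels were most like each member were found among 8902 named transcripts with a mean of 5 FPKM or more, by Pearson correlation of log2(FPKM + 1) over the 9 libraries. These correlations describe the 9 fish, which share groups and library effects. For SLC40A1 the most similar genes were GLA, a lysosomal alpha-galactosidase (r = 0.98), GGCX, the vitamin K-dependent carboxylase (r = 0.96), GRTP1 (r = 0.95), PRCC (r = 0.93) and OSER1 (r = 0.93). For HEBP1 they were AKAP9, a scaffold of the Golgi and centrosome (r = 0.95), FAAH2 (Swiss-Prot entry FAH2A, r = 0.92), DCTN1, a dynactin subunit (r = 0.88), ASAH1, the lysosomal acid ceramidase (r = 0.87), and a major urinary protein transcript (MUP1, r = 0.85). For ALAS2 they were GADD45G, a stress-response gene (r = 0.98), PABIR1 (r = 0.97), TPST1 (r = 0.96), VISTA, an immune checkpoint receptor (r = 0.96), and SOCS3, an inhibitor of cytokine signaling (r = 0.96). A correlation above 0.9 was found for 9 transcripts with SLC40A1, 3 with HEBP1 and 156 with ALAS2. None of the 84 iron and heme genes was among the 5 most similar genes of any member. At most 64 of them had the mean level needed to be compared. They are few among the 8902 transcripts, so this absence is no result about them.

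GLA shows how close the SLC40A1 pattern was matched. It measured 16.1, 1.84 and 12.9 FPKM in Ori, 14.0, 38.1 and 14.7 FPKM in D14FL, and 2.33, 0.000494 and 5.61 FPKM in D30FL. As in SLC40A1, Ori 2 was the low Ori fish, D14FL 2 the high D14FL fish and D30FL 2 the low D30FL fish, although its D14FL and Ori groups overlapped. The MUP1 transcript that resembled HEBP1 measured 2.20, 1.16 and 0.426 FPKM in Ori, 11.8, 15.0 and 15.3 FPKM in D14FL, and 1.79, 7.55 and 0.0749 FPKM in D30FL, and its best protein match is mouse, not fish. The 54 transcripts with a mouse protein as best match summed to 21.8 to 28.3 FPKM in Ori, 139.6 to 253.1 FPKM in D14FL and 84.9 to 146.5 FPKM in D30FL. The lead HEBP1 transcript itself has a fish protein as its best match.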

How the data were processed

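Per the labels' protocols, poly(A) RNA was captured from gut total RNA on oligo(dT) beads, and libraries were amplified once the cDNA's second strand had been removed. A trimmer, cutadapt 1.9, and a mouse genome build, mm10, are listed in the submitters' processing notes. The build has no stated role and was not used here. For the assembly and the quantification, a tool is not given in the sources used here. Per the file headers, the deposited values are FPKM for 59331 transcripts whose names have the form of a Trinity assembly; the unit rests on that name. FPKM values above 0 go down to 3.63e-118, so whole reads could not be recovered, depth is unknown, and a 0 is described as listed. FPKM sum to 810895 to 929953 per library.

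Transcripts with 1 FPKM or more in at least 3 libraries (54200) were tested on log2(FPKM + 1), so fold changes of low transcripts are understated. The test was limma 3.58.1 in R 4.3.3 on all 9 libraries, with trended variance and Benjamini-Hochberg adjustment over all tested transcripts, and adjusted p under 0.05 counted as passed. The fit has 6 residual degrees of freedom and the code was tested on simulated data. Calls come from differences before the median of all transcripts was subtracted. Each sample was assigned by its title. The p-values test differences of group means against the spread between fish within groups, estimated over all 3 groups together.

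The members and lists were chosen with earlier results of these data known. Each gene is represented by its highest-mean transcript. The genes named are all members, a set chosen by role whatever their values, any list gene that passed, up to 4 markers per list by mean level (more in the text where a marker bore on a member), and the 5 genes most similar to each member. Of the genes chosen by role, 2 are not reported here. Rows whose Swiss-Prot entry belonged to another protein were removed after values were seen. Rows where only the best database match was another protein were kept, among them HMOX2, HEBP2, HFE, CA2, ALPI, SERPINC1, CPB1, CELA1 and ELA2A. Alternatives changed the pseudocount, filter, scaling, replicate block, samples fitted and summing of transcripts, and left out each library. Replicate numbers did not pair the fish. Tables and figures used Python 3.11.15, pandas 2.3.3, numpy 2.4.6 and matplotlib 3.10.9.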

Additional observations from a re-analysis of the deposited data

How the results depend on the processing

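The counts of calls, the differences of the 3 lead transcripts and the calls of ISCU, NFS1, STEAP4 and SPIC were computed again under the alternatives. The filter, the replicate block and the groups fitted do not enter a difference of group means, and transcripts were not summed for the count over all of them. Group overlaps, marker sums, shares and correlations were not recomputed. The lead transcripts of SLC40A1, HEBP1 and ALAS2 kept the sign of each difference to Ori, and SLC40A1 and HEBP1 that of D30FL minus D14FL, in every alternative run; for ALAS2, D30FL minus D14FL was 0.20 and reached -0.08 without D30FL 2. With median-of-ratios scaling HEBP1 was at 0.55 for D14FL minus Ori and -0.89 for D30FL minus Ori, against 1.04 and -0.44 as fitted. ALAS2, at 0.91 and 1.11 as fitted, was at 2.35 and 2.66 with a pseudocount of 0.1, and at 1.49 and 1.82 with its transcripts summed. The causes were not tested, except that a smaller pseudocount widens differences between low values.

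The counts moved far more. Of all transcripts, 1501 were called for D14FL against Ori, but 874 with quantile scaling, 315 with the replicate block and 3335 with only the 2 groups compared. For D30FL against Ori, 1746 were called, but 890, 357 and 507 under the same alternatives. For D30FL against D14FL, 1 was called, and 0 with only the 2 groups compared. Calls were higher in D14FL in 40.2% of cases with median-of-ratios scaling and 44.9% with quantile scaling, and higher in D30FL in 43.0% and 43.1%, so the excess of higher calls, present without rescaling (1176 of 1501 and 1349 of 1746), did not hold there. Leaving out 1 library gave 139 (without D14FL 1) to 3649 (without D30FL 2) for D14FL against Ori, 98 (without D30FL 1) to 6466 (without D30FL 3) for D30FL against Ori, and 0 to 2 for D30FL against D14FL.

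Of the 84 iron and heme genes, 2 were called for D14FL against Ori. This count was 8 with a mean FPKM of at least 5, 8 with only the 2 groups compared, and 1 each with median-of-ratios scaling (TSPO, lower), quantile scaling, the replicate block (ISCU) and summed transcripts. Against 3 called for D30FL against Ori, there were 6 with a mean FPKM of at least 5, and 1 each with quantile scaling, the replicate block (ISCU) and only the 2 groups compared. With a mean FPKM of at least 5, only 64 of the genes were tested. Of all 19743 transcripts kept there, 1620 were called at day 14 and 1802 at day 30. Without 1 library the counts of iron and heme genes were 0 to 10 (10 without D30FL 2) and 0 to 14 (14 without D30FL 3). The calls over all transcripts moved in a similar way. With 5 further genes matched after seeing the data there were 2 and 4, and without genes whose best match is no fish 2 and 3. Same-numbered fish of different groups correlated between -0.315 and 0.084, so the numbers do not pair the fish. The unknown depth limits what can be said of ALAS2 and other transcripts near 1 FPKM.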

Other observations

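Some rows that carry the names of iron genes match proteins of other animals or of bacteria, and these were noticed after their values were seen. A ferritin heavy chain row whose best match is chicken measured 4.08, 1.42 and 1.54 FPKM in Ori and is listed at 0 in all D14FL and D30FL libraries. One whose best match is wild yak measured 5.30, 9.78 and 14.3 FPKM in Ori, 1.98, 0.580 and 1.47 FPKM in D14FL, and 1.17, 2.38 and 1.64 FPKM in D30FL. Another, whose best match is a sea lion, measured 1.47, 1.05 and 0 FPKM in Ori, 23.6, 23.5 and 22.8 FPKM in D14FL, and 24.6, 17.9 and 28.0 FPKM in D30FL. All 3 rows passed the test in both comparisons with Ori. The chicken row met the filter through its Ori libraries alone, so its calls are a description only. The sea lion row met the filter only with the later libraries, where it is high, so its calls are a description too. The 3 FTH1 rows whose best match is sterlet did not pass. The least abundant of them measured 87.2, 36.0 and 53.7 FPKM in Ori and 157, 203 and 172 FPKM in D14FL. In D30FL it measured 181, 345 and 105 FPKM, so all its later fish lay above all Ori fish. A row matched best by herring did not pass either, with all D14FL fish below all Ori fish.

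Rows named NFS1 and ISCU show a similar split. An NFS1 row with a Bacillus protein as best match measured 15.6, 10.4 and 0 FPKM in Ori, and one with a coral protein 8.86, 6.98 and 0 FPKM. An ISCU row with an ant protein as best match measured 7.59, 6.86 and 0 FPKM in Ori. All 3 rows are listed at 0 in the 6 later libraries. They are not part of the NFS1 and ISCU values given above, but they enter the sum where all rows of a gene are added, and there the NFS1 calls were lost. Where these transcripts come from was not tested.

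A transcript that only the best protein match calls heme-binding protein 1 was outside the rule for HEBP1. It measured 0.269, 0.262 and 1.13 FPKM in Ori, 0.456, 0.704 and 1.73 FPKM in D14FL, and 1.65, 3.69 and 0.249 FPKM in D30FL. SLC25A39, a mitochondrial glutathione carrier needed for heme synthesis and iron-sulfur proteins in mice, was matched by another entry name after values were seen. It measured 10.4, 19.6 and 17.0 FPKM in Ori, 53.0, 42.7 and 29.8 FPKM in D14FL, and 57.3, 36.6 and 41.3 FPKM in D30FL. It passed at day 30 (limma, relative log2 difference 1.12 ± 0.34, adjusted p = 0.0415) and not at day 14 (limma, 0.98 ± 0.34, adjusted p = 0.0555). The day 30 call was lost with median-of-ratios or quantile scaling, with the replicate block and with only the 2 groups compared. It was also lost without any Ori library, D14FL 1, D14FL 2, D30FL 1 or D30FL 2.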
